A study of Rattus norvegicus with 30 samples.

Results

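The response of 6 genes of hepatic steroid metabolism, Cyp17a1, Cyp2a1, Cyp2a2, Srd5a1, Hsd11b1 and Hsd17b2, was followed in cultured rat hepatocytes given phenobarbital, a barbiturate that induces liver drug metabolism. The members were listed by gene symbol and looked up in the probe set annotation of the array. Of these 6 genes, 5 had a probe set, and Srd5a1, the steroid reductase that makes dihydrotestosterone, had none in the annotation used here. The 5 genes were read by 6 of the 31099 probe sets on the array: Cyp17a1 by 1387123_at, Cyp2a1 by 1387511_at, Cyp2a2 by 1369424_at, Hsd11b1 by 1386953_at, Hsd17b2 by 1387156_at, and Cyp2a1 together with Cyp2a2 by 1369275_s_at, which cannot separate them and is called the shared probe set below. All 6 were among the 16596 probe sets tested.

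The liver is the main site where circulating steroids are hydroxylated, reduced, oxidised and conjugated for excretion. Cytochrome P450 enzymes add hydroxyl groups at fixed positions of the steroid ring, and in the rat several of these enzymes differ between the sexes because the liver reads the pattern of growth hormone release. Hydroxysteroid dehydrogenases interconvert the hydroxyl and keto forms of a hormone, so that they switch it between active and inactive states within the cell. Phenobarbital acts on the liver mainly through the constitutive androstane receptor CAR (gene Nr1i3), which partners with other nuclear receptors at the promoters of P450 genes.

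The cells were bought frozen as primary hepatocytes of male Sprague Dawley rats, plated on collagen with a Matrigel overlay, and dosed on day 3 of culture. The 6 groups were vehicle, 300 µM and 3000 µM phenobarbital at 24 h, and vehicle, 300 µM and 3000 µM phenobarbital at 48 h, with 5 separately cultured wells and 1 array for each well in every group. The vehicle is named water in one label and culture medium in another, the labels number no donor animals, and the spread between arrays is therefore a spread between wells. Signals are linear MAS5 intensities scaled to a trimmed mean between 1500.6 and 1500.7 on every array, and array medians lay between 347.5 and 424.3. A change means an adjusted p under 0.05 in limma's moderated test on log2 signal, 2-sided, with Benjamini-Hochberg adjustment over all 16596 probe sets. Probe sets entered the test where the highest group mean reached the median of all values, a signal of 383.6, and values under that level are imprecise. Replicate 4 of the 48 h group at 3000 µM and replicate 1 of the 24 h vehicle group stood apart in their hybridization controls. They lay 1.34 and 0.91 above the median array on the log2 scale. Calls of the 6 probe sets that depend on either well are given with and without it. For the other genes counted from lists below, this was done in part. All 12 hepatocyte marker genes with a probe set reached the filter level in all 6 groups. Of 9 genes that mark adrenal and gonadal steroid-making cells, 8 stayed below that level in every group, and Cyp11a1 reached it in some. Markers of other liver cells also reached the level in at least 1 group. These were 6 of 9 macrophage genes, 5 of 10 stellate cell genes, 2 of 7 endothelial genes and 2 of 6 bile duct cell genes. The share of such cells in the wells was not tested. The arrays measure RNA of whole wells, in which fewer cells of a type and less RNA in each cell cannot be told apart.

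**Figure D1:**
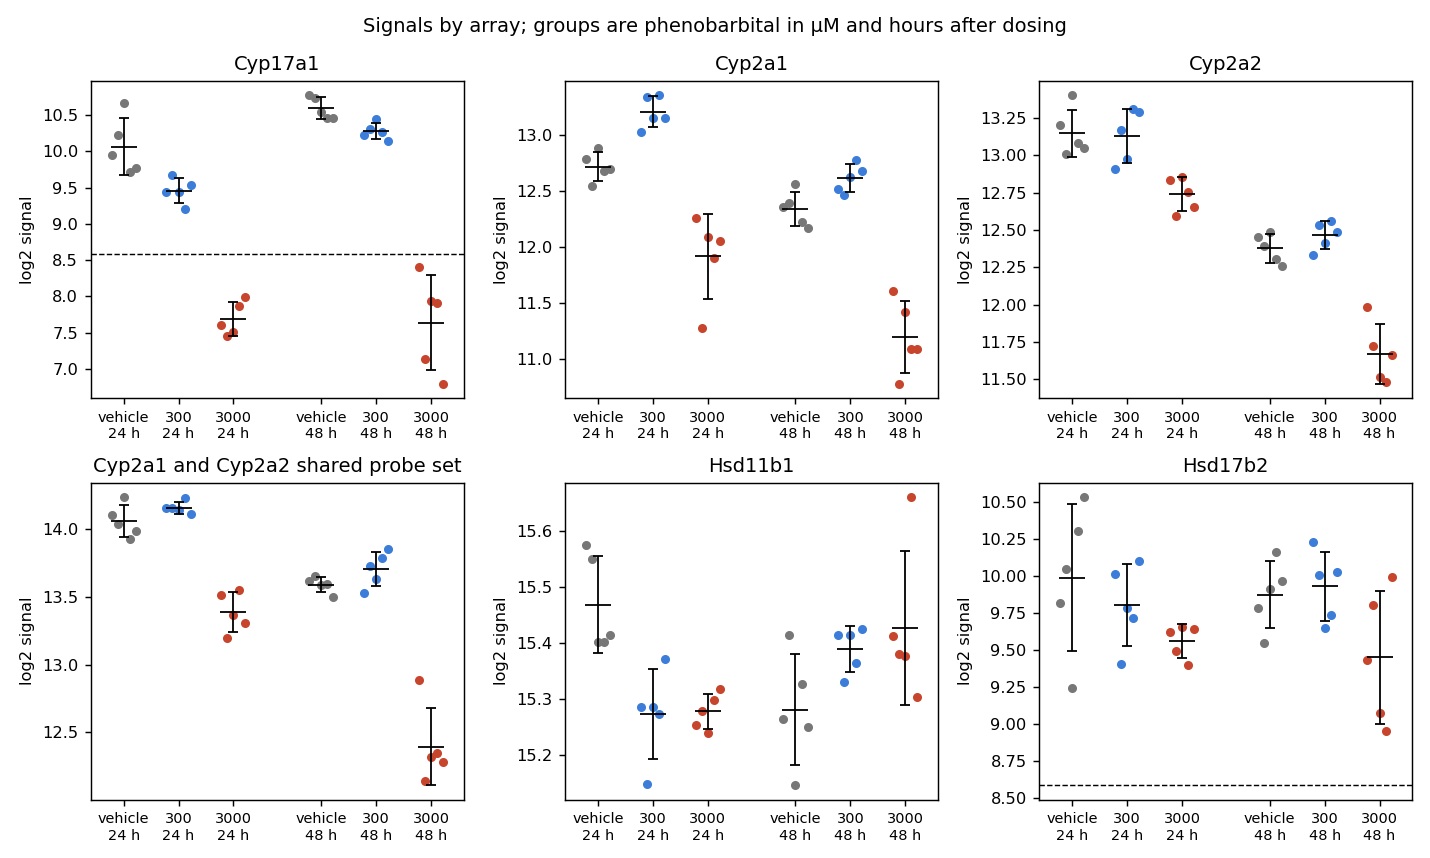
Signal of each of the 6 probe sets by array, on a log2 axis of its own for each panel; groups run vehicle, 300 µM, 3000 µM at 24 h and then at 48 h, points are wells, and bars are the mean ± SD of 5. The dashed line is the filter level of 8.58; the 10 Cyp17a1 arrays at 3000 µM lie below it, while the panel of Hsd11b1 spans less than the others.

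The genes fell into 3 patterns. Cyp17a1 was the member that changed most, with about 5-fold to 8-fold less signal at 3000 µM. Cyp2a1 and Cyp2a2 also fell at 3000 µM, by between 1.33-fold and 2.21-fold, and Cyp2a1 rose at 300 µM at 24 h. Hsd11b1 differed from vehicle by 1.15-fold or less at either dose, and Hsd17b2 passed the test in none. At 3000 µM 5 of the 6 probe sets were lower at 24 h and none was higher, where 32% of all probe sets tested changed, 14.8% lower and 17.3% higher. At 48 h, with 39.4% of all probe sets changed (19.9% lower, 19.5% higher), 4 of the 6 were lower and 1, Hsd11b1, was higher. At 300 µM and 24 h 1 of the 6 was higher and 1 lower, against 2.99% of all probe sets changed, 1.72% higher and 1.27% lower. At 300 µM and 48 h 0 of the 6 changed by limma (0 at an unadjusted p under 0.05), against 1.54% of all probe sets, 0.813% higher and 0.723% lower (135 up and 120 down; once array medians were centred, 83 up and 41 down). The median log2 change of the 6 was -0.55 at 24 h and -0.92 at 48 h for 3000 µM, and -0.10 and 0.10 for 300 µM, while the median over all probe sets tested lay within 0.02 of 0 in these comparisons. Hepatocyte markers were lower at the same dose: of 18 tested probe sets of the 12 marker genes, 10 fell and none rose at 3000 µM at 24 h, and 7 fell and 2 rose at 48 h, with median log2 changes of -0.26 and -0.13. At 300 µM 0 of the 18 changed by limma at either time, with 8 at an unadjusted p under 0.05 at 24 h and 1 at 48 h. At 3000 µM 8 of the 18 were not called at 24 h and 9 at 48 h, and single markers differed from these medians. Asgr1, the asialoglycoprotein receptor of hepatocytes, fell by 0.62 at 24 h and by 0.88 at 48 h at that dose, more than the marker medians. Asgr1 and Apob do not stand for the whole list, in which 2 of the 18 probe sets rose at 48 h. Apob, the main protein of very low density lipoprotein, fell by 0.47 and 0.89 in its probe set of higher signal, while the other stood at 0.35 and -0.18, not called. The marker gene Tat is also counted among the glucocorticoid targets below. The part of the markers in the falls of Cyp17a1, Cyp2a1 and Cyp2a2 was not tested.

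**Figure D2:**
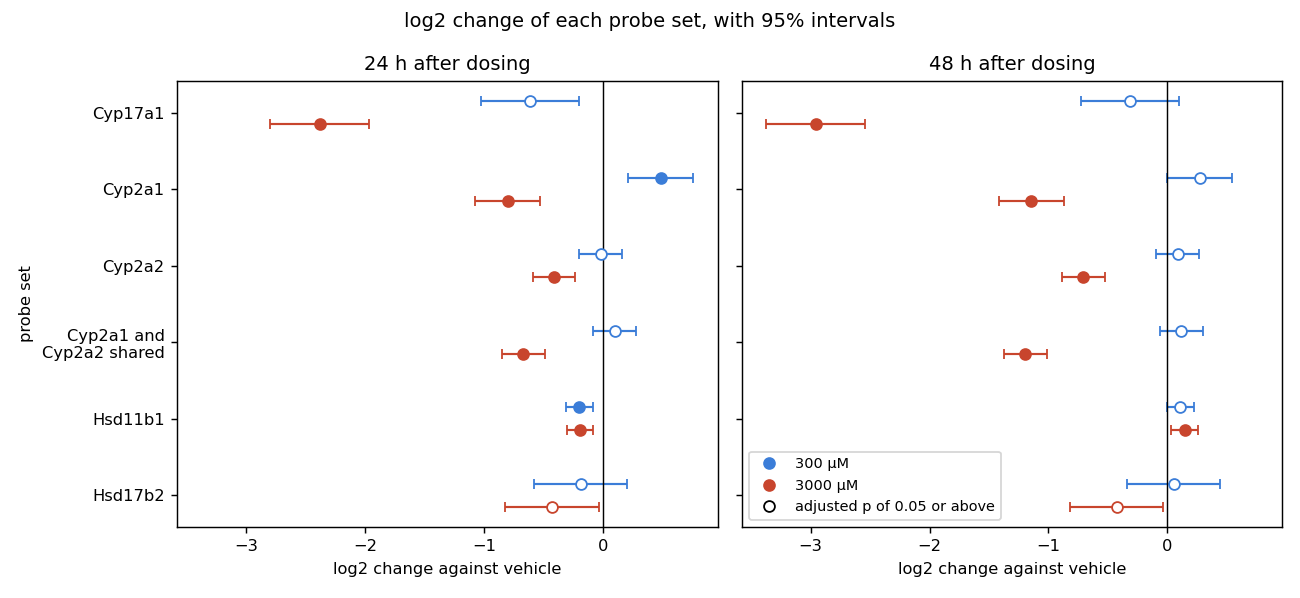
log2 change of each probe set against vehicle of the same time, with 95% intervals from limma, for 300 µM and 3000 µM at 24 h and 48 h; filled points have an adjusted p under 0.05. The intervals of Cyp17a1, Cyp2a1, Cyp2a2 and the shared probe set at 3000 µM lie wholly below 0 at both times, and those of Hsd11b1 are the narrowest and lie close to 0.

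Cyp17a1 encodes the P450 that hydroxylates progestins and cleaves their side chain on the way to androgens. Its signal at 24 h was 697, 816, 693, 589.6 and 740.5 in the 5 wells at 300 µM, and 195, 176, 183, 234 and 254 at 3000 µM, against 995, 1202, 1625, 839.8 and 876 in vehicle wells. The 3 groups did not overlap at this time, with all wells at 3000 µM lowest and all vehicle wells highest. At 3000 µM the log2 change was -2.38 (SE 0.20, 95% interval -2.80 to -1.96, n = 5 wells each, limma adjusted p = 6.1e-11), a 5.21-fold lower signal. At 300 µM it was -0.61 (SE 0.20, interval -1.03 to -0.19), and although every well lay below every vehicle well, the limma adjusted p was 0.111 and the gene was not called.

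At 48 h Cyp17a1 had 1195, 1272, 1401, 1239.6 and 1136 in wells at 300 µM, and 338, 141, 245, 241 and 111 at 3000 µM, against 1749.9, 1716, 1487, 1416 and 1407 in vehicle wells. Again the 3 groups were in the same order without overlap, the 300 µM well of 1401 lying just under the lowest vehicle well of 1407. The log2 change at 3000 µM was -2.96 (SE 0.20, interval -3.37 to -2.54, limma adjusted p = 1.9e-13), or 7.77-fold lower, and at 300 µM -0.31 (interval -0.73 to 0.10, limma adjusted p = 0.618), which was not called. All 10 wells at 3000 µM were below the filter level of 383.6, so that these folds rest on signals in the imprecise range, and the spread of 0.65 (SD of log2) at 48 h was the widest of any member in any group. Set against 300 µM instead of vehicle, Cyp17a1 at 3000 µM was lower by 3.41-fold at 24 h and 6.25-fold at 48 h (limma adjusted p = 4.5e-08 and 4.7e-12). In vehicle wells its log2 signal was 0.53 higher at 48 h than at 24 h, but the wells overlapped and the change was not called (limma adjusted p = 0.122). The difference between the 48 h and 24 h effects of 3000 µM, -0.58 on the log2 scale (interval -1.17 to 0.01), was not called either (limma adjusted p = 0.275).

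The genes whose log2 signal followed Cyp17a1 most closely over the 30 arrays were Lpin1 (r = 0.975), the phosphatidate phosphatase lipin, Acad11 (r = 0.969), an acyl-CoA dehydrogenase, Inhbe (r = 0.967), an inhibin subunit of hepatocytes, Arrdc4 (r = 0.965), an arrestin-domain protein, and Abcd3 (r = 0.963), a carrier of the peroxisomal membrane. These correlations are descriptions over arrays that share 6 groups, so differences between group means enter them. Within groups, the deviations of Cyp17a1 from the group mean correlated with those of the shared Cyp2a probe set at r = 0.60 and with those of Hsd17b2 at r = -0.68, over the same 30 arrays. The value for Hsd17b2 came mostly from vehicle at 24 h and 3000 µM at 48 h. There the log2 SD was 0.39 and 0.65 for Cyp17a1 and 0.50 and 0.45 for Hsd17b2. All Cyp17a1 wells at 3000 µM were below the filter level.

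Cyp2a1 and Cyp2a2 are neighbouring genes of the rat Cyp2 cluster, and their products are testosterone hydroxylases that attack different positions of the ring, Cyp2a1 being the form more typical of female rat liver and Cyp2a2 that of male rat liver. In the RefSeq order of genes of assembly GRCr8 they stand between Cyp2a3 and Cyp2f4. The promoter of Cyp2a1, whose values at 24 h lay above vehicle at 300 µM and below it at 3000 µM, is shown to give its context; RefSeq promoter entries were matched for 2 of the 6 members, Cyp2a1 and Srd5a1. The stretch is the 250 bases before the gene's start on the plus strand, chr1:91359028-91359277 of GRCr8, and capitals mark a match to the TATA box letters TATAAA.
Cyp2a1: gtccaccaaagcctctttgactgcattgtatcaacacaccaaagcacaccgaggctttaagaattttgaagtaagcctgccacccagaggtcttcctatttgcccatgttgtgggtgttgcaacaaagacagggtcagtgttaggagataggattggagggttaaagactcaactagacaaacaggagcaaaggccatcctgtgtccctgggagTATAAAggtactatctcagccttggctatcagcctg
The match begins 36 bases before the start, on the gene's own strand. TATAAA was found on either strand in 12.9% of 33469 RefSeq promoter windows of this length. The nuclear receptor half-site AGGTCA, present in 14.1% of the windows, and the steroid receptor half-site AGAACA, present in 17.5%, were searched on both strands and these letters do not occur in this stretch.

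Cyp2a1 at 24 h had 8368, 10406, 9137, 10475 and 9134 in wells at 300 µM, and 4925, 2489.7, 4354, 3841 and 4260.4 at 3000 µM, against 7072, 5980.5, 7580.4, 6576 and 6631 in vehicle wells. Every well at 300 µM was above every vehicle well and every well at 3000 µM below, so that the doses lay on opposite sides of vehicle. The log2 change was 0.49 at 300 µM (SE 0.13, interval 0.21 to 0.76, limma adjusted p = 0.0388), a 1.40-fold rise, and -0.80 at 3000 µM (SE 0.13, interval -1.07 to -0.53, limma adjusted p = 1.9e-05), 1.74-fold lower. The rise at 300 µM lost its call in 11 of 19 alternative settings, among them leaving out replicate 1 of the vehicle wells (limma adjusted p = 0.0564) or centring array medians (limma adjusted p = 0.115), with a log2 change between 0.45 and 0.51 in the settings that lost it.

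At 48 h Cyp2a1 had 5874, 5672, 6323, 7044 and 6576 at 300 µM, and 3123, 1764, 2750.3, 2185 and 2181 at 3000 µM, against 5245, 5398, 6053, 4777 and 4622 in vehicle wells. The 300 µM and vehicle wells overlapped, while all wells at 3000 µM were lowest. The log2 change at 3000 µM was -1.14 (SE 0.13, interval -1.42 to -0.87, limma adjusted p = 3.0e-08), or 2.21-fold lower, and at 300 µM 0.27 (interval -0.00072 to 0.55, limma adjusted p = 0.422), not called. Between the doses, Cyp2a1 was 2.44-fold lower at 3000 µM than at 300 µM at 24 h and 2.67-fold lower at 48 h (limma adjusted p = 1.0e-08 and 6.3e-10).

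Cyp2a2 at 24 h had 7673, 9234, 8063, 10148 and 10022 at 300 µM, and 7302, 6177, 7424, 6924 and 6442 at 3000 µM, against 9424, 8249, 10821, 8659 and 8485 in vehicle wells. Wells at 300 µM overlapped with the vehicle wells, 7673 and 8063 lying below the lowest of these, and all at 3000 µM lay below both groups. At 48 h it had 5163, 5924, 5452, 6047 and 5741 at 300 µM, and 4052, 3372, 2923, 2857 and 3239 at 3000 µM, against 5603, 5371, 5743, 5061 and 4890.3 in vehicle wells. Again the wells at 300 µM overlapped with vehicle, here with 5924 and 6047 above the highest vehicle well, and all at 3000 µM were lowest. Its log2 change at 3000 µM was -0.41 at 24 h (SE 0.088, interval -0.59 to -0.23, limma adjusted p = 0.000427) and -0.71 at 48 h (SE 0.088, interval -0.89 to -0.53, limma adjusted p = 6.5e-08). At 300 µM it was -0.02 at 24 h (interval -0.20 to 0.16) and 0.09 at 48 h (interval -0.09 to 0.27), neither called.

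The shared probe set had 18239, 18208, 18027, 19241 and 17699 at 300 µM and 24 h, and 11686, 9408, 10577, 12017 and 10129 at 3000 µM, against 17603, 16807, 19280.1, 15557 and 16219 in vehicle wells. At 48 h the signals were 11838, 13559.9, 12686, 14137 and 14768 at 300 µM, and 7569.8, 4513, 5116, 5209 and 4991 at 3000 µM, against 12536, 12856, 12304, 12361 and 11567 in vehicle wells. At both times the wells at 3000 µM were apart from the rest, and at 48 h replicate 1 at 3000 µM stood above the other 4 of its group. The log2 change at 3000 µM was -0.67 at 24 h (interval -0.85 to -0.49, limma adjusted p = 3.7e-07) and -1.19 at 48 h (interval -1.37 to -1.01, limma adjusted p = 1.3e-12). The fall was larger at 48 h (difference -0.52 on the log2 scale, interval -0.78 to -0.27, limma adjusted p = 0.0156). This call was lost with array medians centred (-0.55, limma adjusted p = 0.0598) and with only the groups compared (-0.52, limma adjusted p = 0.0504). The same difference for Cyp2a1 alone, -0.34 (interval -0.73 to 0.05), and for Cyp2a2 alone, -0.30 (interval -0.55 to -0.04), was not called (limma adjusted p = 0.337 and 0.182).

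The 3 Cyp2a probe sets gave different sizes for the same 2 genes, and the gap between Cyp2a1 and Cyp2a2 was measured as the log2 ratio of their signals within each array. This measure was added because the changes given above were seen to differ. Its change between groups equals the difference of those log2 changes, so the test gives the error of that difference and no further evidence. The zero of this ratio has no meaning, because different probes are compared, and its change does. At 24 h the ratio averaged 0.08 ± 0.13 at 300 µM and -0.82 ± 0.30 at 3000 µM, against -0.43 ± 0.06 in vehicle wells (SD, n = 5 each). At 48 h it averaged 0.15 ± 0.12 at 300 µM and -0.47 ± 0.31 at 3000 µM, against -0.04 ± 0.07 in vehicle wells (SD, n = 5 each). The signals of the 2 probe sets changed unequally; whether each binds transcripts of the other gene was not tested. Relative to the Cyp2a2 probe set, that of Cyp2a1 was higher at 300 µM by 0.51 at 24 h (exact permutation test, 2-sided, p = 0.00794) and by 0.19 at 48 h (exact p = 0.0238). It was lower at 3000 µM by 0.39 at 24 h (difference -0.39, exact p = 0.00794) and by 0.44 at 48 h (difference -0.44, exact p = 0.0159). The ratio in vehicle wells was 0.39 higher at 48 h than at 24 h (exact p = 0.00794). Adjusted over the 7 comparisons made, these values were between 0.0111 and 0.0238, and 0.00794 is the smallest p that 5 against 5 wells allow. The 300 µM ratio at 48 h rose above an exact p of 0.05 without replicates 1, 3, 4 or 5 of the wells at 300 µM, each in turn, with exact p up to 0.0635; the other differences kept an exact p under 0.05 in all alternatives run.

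**Figure D3:**
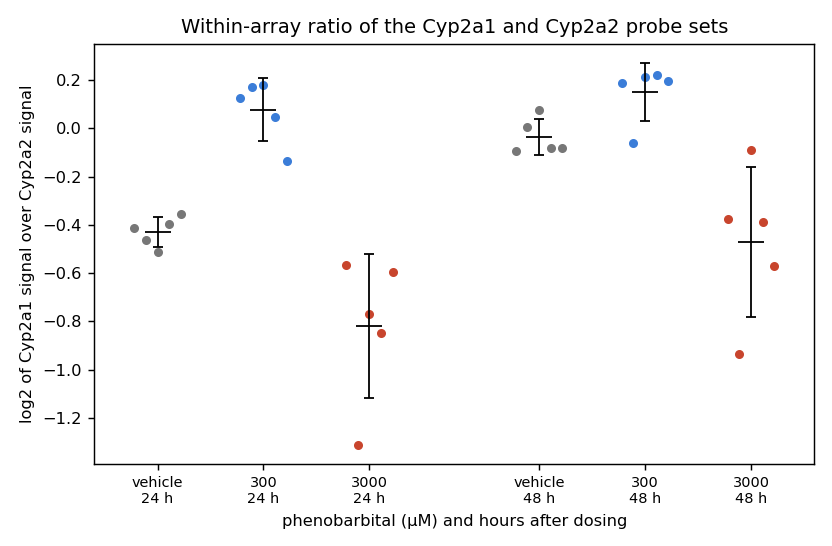
log2 of the Cyp2a1 signal over the Cyp2a2 signal within each array, by group, with the mean ± SD of 5 wells. At 24 h the wells at 300 µM lie above the vehicle wells and those at 3000 µM below them; at 48 h the wells at 3000 µM are spread from -0.93 to -0.09 and 1 of them lies among the vehicle wells.

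The genes on either side of the pair were looked up in the same order. Cyp2a3, the third Cyp2a gene of the order, did not reach the filter level. Cyp2f4, on the other side, fell at 3000 µM by 0.61 at 24 h and by 0.73 at 48 h on the log2 scale (limma adjusted p = 1.2e-07 and 1.5e-09), and at 300 µM its values were -0.05 and -0.01, not called. Cyp2t1, the gene after it, was 0.27 higher at 3000 µM at 24 h (limma adjusted p = 0.0283) and -0.19 at 48 h, not called.

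Genes that followed Cyp2a1 over the 30 arrays were Car5a (r = 0.942), a mitochondrial carbonic anhydrase, Bhmt (r = 0.937), betaine-homocysteine methyltransferase, Afmid (r = 0.936), Tlcd4 (r = 0.930) and Cyp4f1 (r = 0.929). For Cyp2a2 they were Glyat (r = 0.946), glycine acyltransferase, Rida (r = 0.943), Haao (r = 0.942), an enzyme of tryptophan breakdown, Ces1c (r = 0.941), a carboxylesterase, and Afm (r = 0.928), afamin. For the shared probe set they were Dpt (r = 0.975), Bhmt (r = 0.968), Baat (r = 0.966), the enzyme that conjugates bile acids with amino acids, Lcat (r = 0.964), the cholesterol esterifying enzyme of plasma, and Khk (r = 0.964), fructokinase. The Cyp2a1 and Cyp2a2 probe sets correlated with each other at r = 0.82 over the 30 arrays and at r = 0.55 after the group means were removed.

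Hsd11b1 encodes the dehydrogenase of the endoplasmic reticulum that regenerates active glucocorticoid from its keto form, with NADPH made in the same compartment by H6pd. Its signal was high, with a mean rank at the 99.2 percentile of all probe sets in vehicle wells at both times. At 24 h it had 39959, 36281, 39926, 39603 and 42393 at 300 µM, and 39081, 39749.5, 38680.3, 40293 and 40833 at 3000 µM, against 48815, 48022, 43277, 43296 and 43675 in vehicle wells. Both doses lay wholly below vehicle and overlapped with each other, 1.15-fold lower at 300 µM and 1.14-fold lower at 3000 µM. The log2 change was -0.20 at 300 µM (SE 0.055, interval -0.31 to -0.08, limma adjusted p = 0.0433) and -0.19 at 3000 µM (SE 0.055, interval -0.30 to -0.08, limma adjusted p = 0.00717).

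At 48 h Hsd11b1 had 43649.7, 41184, 43690.1, 42175 and 43981 at 300 µM, and 43626, 42656, 42571, 51829 and 40429.9 at 3000 µM, against 39353, 43682, 36241, 41099 and 38983 in vehicle wells. The treated wells overlapped with the vehicle wells at both doses. The log2 change at 3000 µM was 0.15 (SE 0.055, interval 0.03 to 0.26, limma adjusted p = 0.0334), 1.11-fold higher, and at 300 µM 0.11 (interval -0.0033 to 0.22, limma adjusted p = 0.442), not called. The highest well, 51829, is replicate 4 at 3000 µM, which stood apart in its hybridization controls, and without it the change was 0.09 (limma adjusted p = 0.149). The effect of 3000 µM differed between the times by 0.34 on the log2 scale (interval 0.18 to 0.50, limma adjusted p = 0.0116), and in the vehicle wells themselves Hsd11b1 was 0.19 lower at 48 h than at 24 h (limma adjusted p = 0.0311). With quantile normalization the change at 3000 µM was -0.07 at 24 h (limma adjusted p = 0.0912) and 0.07 at 48 h (limma adjusted p = 0.061), and the difference between the times was 0.14 (limma adjusted p = 0.0624). The call of that difference was also lost with array medians centred (0.31, limma adjusted p = 0.0716). Without replicate 1 of the 24 h vehicle wells, the other well apart in its hybridization controls, the change at 300 µM and 24 h was -0.17 (limma adjusted p = 0.126) and that in vehicle over time -0.16 (limma adjusted p = 0.101). Both were called with the 2 wells left out together. The call at 300 µM and 24 h was lost in 10 of 19 alternative settings, at 3000 µM in 2 of 19 at 24 h and 9 of 19 at 48 h, and in vehicle wells over time in 7 of 19.

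The level of the hepatocyte markers together was set beside Hsd11b1. At 24 h the summed signal of the 12 marker genes ran from 528160 to 632453 at 300 µM and from 525627 to 555934 at 3000 µM, against 623558 to 798651 in vehicle wells. At 48 h the sum ran from 464305 to 747553 at 3000 µM, against 541103 to 628942 in vehicle wells, and those wells overlapped. The median at 3000 µM, 507785, lay below every vehicle well. These sums were not repeated without the 2 wells apart in hybridization controls. Apoa1, 1 of the 12, was also among the genes closest to Hsd11b1 over the 30 arrays (r = 0.887), with Adh1c (r = 0.920), an alcohol dehydrogenase, and the ribosomal protein genes Rpl26 (r = 0.893), Rps16 (r = 0.881) and Rpl19 (r = 0.876). The part of these markers in the Hsd11b1 values was not tested.

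Hsd17b2 encodes the dehydrogenase that oxidises testosterone and estradiol to their less active keto forms. At 24 h it had 1034, 678, 882, 840.0 and 1099.5 at 300 µM, and 788, 719, 807, 674 and 798 at 3000 µM, against 901, 1057, 605, 1265 and 1482 in vehicle wells. At 48 h it had 1201, 1029, 801, 853 and 1042 at 300 µM, and 689, 893, 539, 495 and 1018 at 3000 µM, against 881, 749, 965, 1144 and 999 in vehicle wells. All groups overlapped, and the vehicle wells at 24 h spread widely, with a log2 SD of 0.50. The log2 change at 3000 µM was -0.43 at 24 h (interval -0.82 to -0.03, limma adjusted p = 0.0904) and -0.42 at 48 h (interval -0.82 to -0.03, limma adjusted p = 0.0806), so that a change of that size was not called at this spread. Without replicate 3 of the 24 h vehicle wells, at 605 the lowest of its group, the 24 h value was -0.61 (limma adjusted p = 0.0093). At 300 µM the values were -0.18 and 0.06, with intervals that reach from -0.58 to 0.45. No gene followed Hsd17b2 closely, the nearest being Zc3hc1 (r = 0.725), Msrb1 (r = 0.687), Serpina11 (r = 0.686), Slurp2 (r = 0.682) and Ddah1 (r = 0.682).

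In vehicle wells, 3 of the 6 probe sets were lower at 48 h than at 24 h, against 7.2% of all probe sets changed (672 up and 523 down; once array medians were centred, 269 up and 467 down). Cyp2a2 fell by 0.77 on the log2 scale (interval of the change -0.95 to -0.59, limma adjusted p = 2.4e-07), the shared probe set by 0.47 (limma adjusted p = 0.0007) and Hsd11b1 by the 0.19 given above. In Cyp2a2 and the shared probe set every well at 48 h was below every well at 24 h. The Cyp2a1 change of -0.38 was not called (limma adjusted p = 0.0888). The Cyp2a2 signal was thus 1.71-fold lower at 48 h in vehicle, beside its 1.33-fold fall at 3000 µM at 24 h; the 2 sizes were not compared in a test.

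Against 300 µM, 4 of the 6 probe sets were lower at 3000 µM at each time: Cyp17a1, Cyp2a1, Cyp2a2 and the shared probe set. Of all 16596, 26.1% differed at 24 h (2310 up and 2026 down) and 34.9% at 48 h (2977 up and 2813 down). Hsd11b1 did not differ in the test between the doses, with log2 differences of 0.0050 (interval -0.11 to 0.12) at 24 h and 0.04 (interval -0.07 to 0.15) at 48 h, and Hsd17b2 reached -0.48 at 48 h (interval -0.87 to -0.09, limma adjusted p = 0.0517). The comparisons of both doses with vehicle and with each other share wells and are not independent. The difference between the 48 h and 24 h effects was called for 2 of the 6 at 3000 µM, against 4.15% of all probe sets (229 up and 459 down; once array medians were centred, 42 up and 192 down), and for 0 of the 6 at 300 µM, against 0% of all (0 of 16596 by limma, with 1251 at an unadjusted p under 0.05).

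Other genes of the same pathway were counted from lists by function, and each list is summarised by its counts and by the genes with the largest called changes. At 3000 µM and 24 h, where 32% of all probe sets changed, the share changed was 50% of the other hydroxylases, 30% of the reductases, 61.1% of the other dehydrogenases, 38.5% of the redox partners, 53.3% of the conjugation genes, 56.7% of the regulators and 52.9% of the glucocorticoid targets. At 48 h, against 39.4% of all, these shares were 71.4%, 40%, 61.1%, 61.5%, 60%, 76.7% and 47.1% in the same order. The shares of the reductases at both times and of the redox partners at 24 h were thus near those of all probe sets. So was the share of the glucocorticoid targets at 48 h. Of all probe sets, 17.3% were higher and 14.8% lower at 3000 µM at 24 h, and 19.5% and 19.9% at 48 h. At 300 µM 1.72% of all were higher and 1.27% lower at 24 h, and 0.813% and 0.723% at 48 h. These shares stand beside the counts of every list below. Of 14 tested probe sets of other steroid-hydroxylating P450s, 5 rose and none fell at 300 µM at each time, while at 3000 µM 4 rose and 3 fell at 24 h and 6 rose and 4 fell at 48 h. Cyp2c6v1, a P450 of the Cyp2c family, had the largest changes of the list, with rises of 2.04 at 24 h and 2.25 at 48 h at 300 µM, and of 1.68 and 1.72 at 3000 µM, on the log2 scale. Cyp2c11, a testosterone hydroxylase typical of male rat liver, rose at 300 µM by 0.30 at 24 h and 0.57 at 48 h, and stood at 0.16 and 0.15 at 3000 µM, not called. Cyp3a2, also a testosterone hydroxylase typical of male rat liver, rose at 300 µM by 0.68 at 24 h and 1.32 at 48 h and at 3000 µM by 0.64 and 1.12 on the log2 scale, so that it went up at the dose where the Cyp2a genes fell. Cyp2c7, another P450 of the Cyp2c family, rose at 300 µM by 0.58 at 24 h and 0.40 at 48 h, and Cyp3a18 rose at 3000 µM by 0.40 and 0.73. Cyp2c12, a P450 typical of female rat liver, fell at 3000 µM by 0.62 at 24 h and by 1.41 at 48 h. At 300 µM the rise of Cyp2d2, a member of the Cyp2d family, was 0.31 at 24 h and 0.50 at 48 h. Probes for genes of one Cyp family can bind each other's transcripts, which was not tested. Centring the array medians left 3 of the 5 rises at 300 µM and 24 h.

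Among 10 probe sets of steroid reductases and aldo-keto reductases, 3 fell at 3000 µM at 24 h and 4 at 48 h, and none rose. Akr1c1 fell by 1.00 at 24 h and fell by 1.60 at 48 h, and Akr1c19 fell by 0.93 and 1.23. Akr1c13 fell by 0.44 and 0.61. Akr1d1, the reductase of the steroid ring in bile acid synthesis, stood at -0.10 at 24 h, not called, and fell by 0.62 at 48 h. Akr1c1 was also the gene of this list that fell at 300 µM, by 0.37 at 24 h and 0.68 at 48 h. Its call at 24 h was lost in 5 of 19 alternatives, among them leaving out replicate 1 of the vehicle wells. With array medians centred 0 of the 10 were called by limma in that comparison. The Akr1c1 call at 48 h held in all 19. Among 18 probe sets of other hydroxysteroid dehydrogenases, 9 fell and 2 rose at 3000 µM at 24 h, and 8 fell and 3 rose at 48 h. Hsd17b13, a lipid droplet protein of this family, fell at 3000 µM by 1.40 at 24 h and by 1.45 at 48 h, Hsd3b5 by 1.05 and 1.17, and Rdh7 by 0.56 and 1.19. Rdh16 stood at -0.25 at 24 h, not called, and fell by 0.74 at 48 h. Hsd17b8 rose by 0.52 at 24 h and stood at 0.09 at 48 h, not called. At 300 µM 1 of the 18, Hsd17b13, fell at 24 h, by 0.65, a call lost with only the groups compared, and 0 changed at 48 h by limma (3 at an unadjusted p under 0.05).

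Redox partners pass electrons to P450s or supply cofactor to the dehydrogenases. Por, the reductase that serves all microsomal P450s, rose at 300 µM by 0.54 at 24 h and 0.46 at 48 h, and at 3000 µM stood at -0.18 and -0.13, not called. H6pd, the NADPH source of Hsd11b1, fell at 3000 µM by 0.72 at 24 h (limma adjusted p = 2.4e-09) and by 0.86 at 48 h (limma adjusted p = 3.0e-11), while Hsd11b1 itself stood at -0.19 and 0.15 at these times. Fdx1, the ferredoxin of mitochondrial P450s, rose at 3000 µM by 0.36 and 0.41. Cyb5a, the cytochrome b5 that assists P450s, rose at 3000 µM by 0.28 at 48 h and stood at 0.10 at 24 h, not called. The probe set of Cyb5b with the higher signal rose by 0.23 and 0.20, but its other probe set fell by 0.31 and 0.62. In all, 3 of 13 probe sets of this list rose at 300 µM at 24 h and 4 at 48 h with none lower, and at 3000 µM 2 rose and 3 fell at 24 h and 4 rose and 4 fell at 48 h. The count of 5 at 3000 µM and 24 h was 10 with array weights (4 up, 6 down) and 9 with only the groups compared (3 up, 6 down). The count of 3 at 300 µM and 24 h was 5 (4 up, 1 down) without the 2 wells apart in hybridization controls. Among 15 probe sets for conjugation, 4 rose and 4 fell at 3000 µM at 24 h and 4 rose and 5 fell at 48 h, with Ugt2b10, a glucuronosyltransferase, up by 1.23 and 1.42 and Sult1a1, a sulfotransferase, down (-0.48 and -0.57). Ugt2b1 was up by 0.28 and 0.55 and Ugt2a1 by 0.39 and 0.63. Sult2b1 fell by 0.60 at 24 h and stood at 0.34 at 48 h, not called. At 300 µM 3 rose and 1 fell at 24 h and 2 rose at 48 h, with Sult1e1, the estrogen sulfotransferase, 0.86 and 0.54 higher. The gene that fell, Sult1a1 (-0.25, limma adjusted p = 0.0267), lost its call in 8 of 19 alternatives, with values up to -0.018. Among these were leaving out replicate 1 of the 24 h vehicle wells and leaving out the 2 wells apart in hybridization controls.

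Among regulators, more probe sets fell than rose at the high dose, and 19 genes had a tested probe set. Of 30 probe sets for steroid receptors and regulators of liver steroid enzymes, 17 fell and 0 rose at 3000 µM at 24 h, and 20 fell and 3 rose at 48 h, with medians of -0.38 and -0.54 beside 0.01 and -0.00083 over all probe sets tested. Foxa1, a transcription factor of liver development, fell by 1.55 at 24 h and by 1.13 at 48 h. Nr1i3, which encodes CAR, fell by 1.39 at 24 h and by 1.31 at 48 h, Bcl6, a repressor involved in sex-dependent liver expression, by 1.01 and 1.43, and Nr3c1, the glucocorticoid receptor, by 0.21 and 0.71. Nr1h4, the bile acid receptor FXR, fell by 0.90 and 0.43. Nr1i2, the xenobiotic receptor PXR, fell by 0.38 at 24 h and stood at -0.18 at 48 h, not called. At 48 h the liver transcription factors Foxa3 and Onecut1 fell by 1.29 and 1.24. At 24 h they stood at -0.31 and -0.38, not called. The stricter filter left 13 falls and 1 rise at 48 h. At 300 µM 0 of the 30 changed at 24 h by limma (4 at an unadjusted p under 0.05), and 2 fell at 48 h, Ghr, the growth hormone receptor, by 0.50 and Nr2f2 by 0.28. The Nr2f2 call (limma adjusted p = 0.0367) was lost in 10 of 19 alternatives, with adjusted p up to 0.14, and 1 of the 30 was called with array medians centred or with no filter. Of 17 probe sets for liver targets of the glucocorticoid receptor and the plasma carrier of corticosteroids, 9 fell and 0 rose at 3000 µM at 24 h, and 7 fell and 1 rose at 48 h. Tsc22d3, a glucocorticoid-induced leucine zipper protein, fell by 0.62 and 0.70 and Angptl4 by 1.17 and 1.14. Sgk1, a kinase, fell by 0.57 and 0.88. Tdo2, which breaks down tryptophan, fell by 0.43 and 0.61. Pck1, a key enzyme of glucose synthesis, fell by 0.70 at 24 h, a call lost in 10 of 18 alternatives, and stood at -0.54 at 48 h, not called. At 300 µM 4 of the 17 fell at 24 h, with Angptl4 lower by 0.53 and Fkbp5, a chaperone of the receptor, by 0.40. Tdo2 fell by 0.32, a call lost with only the groups compared. At 48 h 4 fell and 1 rose, with Sgk1 lower by 0.61 and Angptl4 by 0.55. The calls of Angptl4 at both times, Fkbp5 at 24 h and Sgk1 at 48 h held in every alternative run. The 24 h count was 8, all lower, without the 2 wells apart in hybridization controls and 7, all lower, with array weights. The 48 h count of 5 was 2 with array medians centred and 3 with no filter, all lower, and 8 with quantile normalization (1 up, 7 down). The gene that rose at 48 h, Lcn2 (0.28), lost its call in 10 of 19 alternatives, and Tsc22d3 (-0.30) lost its call at that time in 8 of 19.

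**Figure D4:**
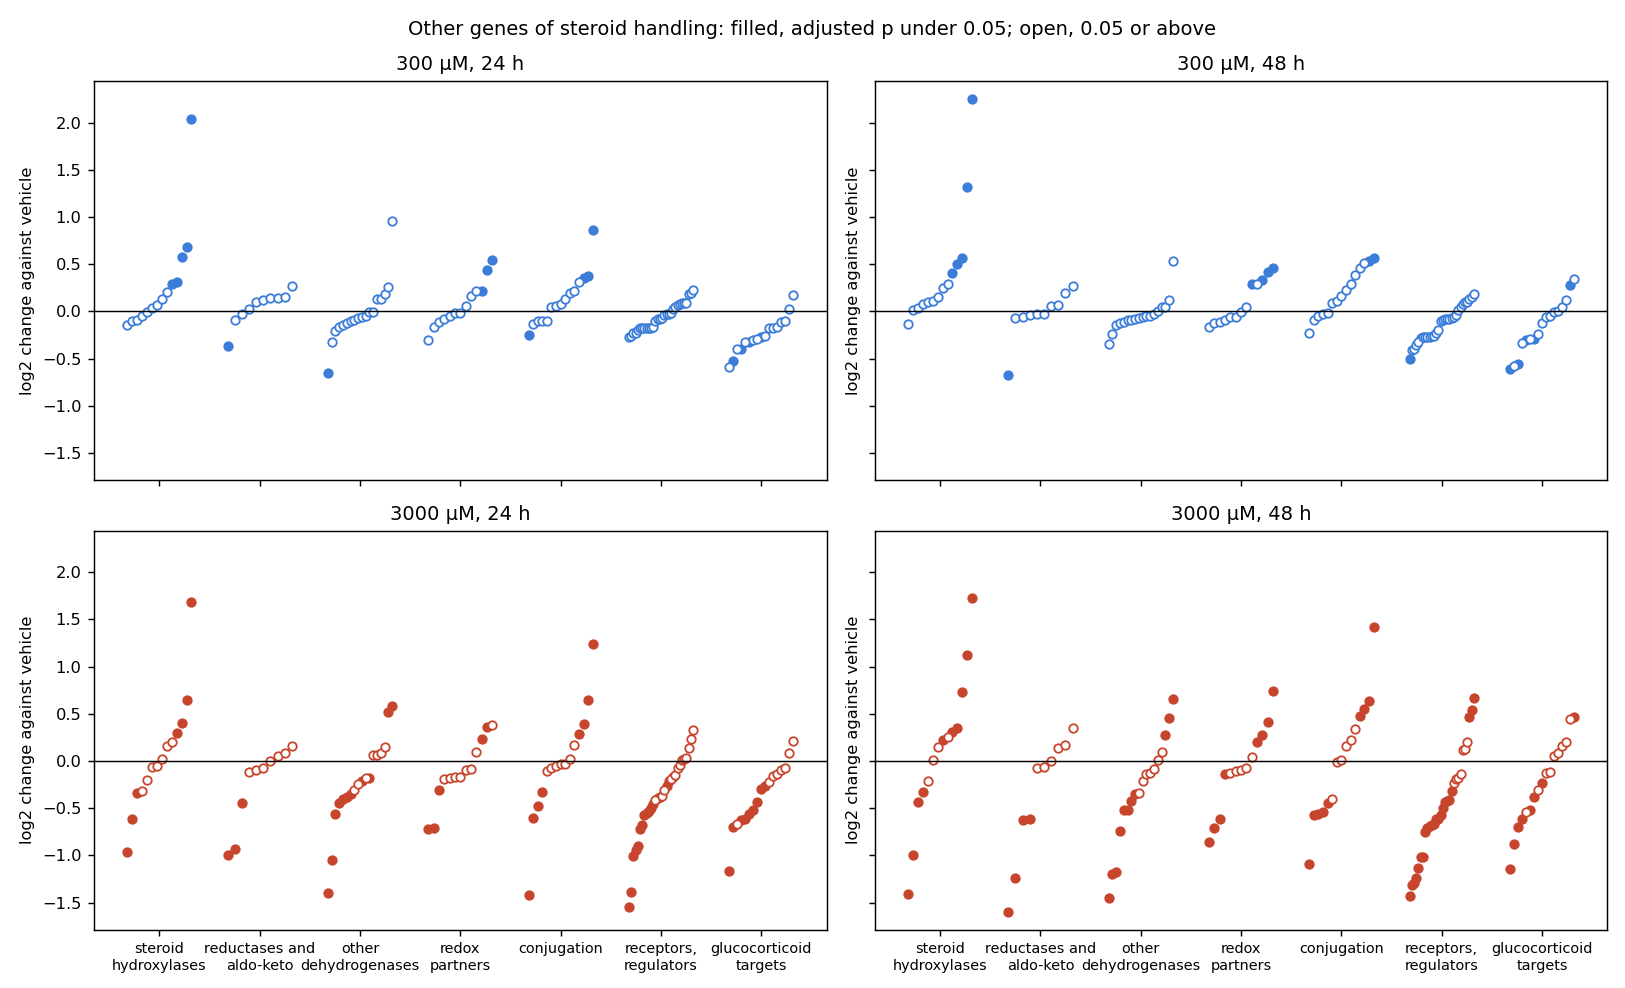
log2 change against vehicle of every tested probe set in 7 lists of steroid-handling genes, ordered by size within a list, for each dose and time; filled points have an adjusted p under 0.05 in limma and open points do not. At 300 µM the filled points are few and lie mainly above 0 among the hydroxylases, while at 3000 µM most filled points of the reductases, dehydrogenases, regulators and glucocorticoid targets lie below 0.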

How the data were processed

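The authors deposited one table of array intensities (MAS5 signal per probe set, linear scale), made with MAS5 per the submitters' processing notes; no version, target value or detection call is given in the sources used here. The common trimmed mean (2% of values left out at each end) shows that each array was scaled by 1 factor, so a change in total RNA per well is removed. Genes were named from the platform annotation, updated by Entrez ID to RefSeq (20764 of 20832 single-symbol probe sets matched). Signals were log2-transformed without a constant and fitted over all 30 arrays with limma 3.58.1 in R 4.3.3 (6 group means; robust eBayes with an intensity trend); p-values were adjusted by Benjamini-Hochberg in each comparison. Intervals are 95%. The code was tested on simulated data. The number of arrays limits the precision.

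All members are named. Genes of the lists are given by their probe set of highest mean signal. From each gene list, up to 4 genes with the largest change among those called in a dose comparison are named. Nr1i3, Nr1i2, Nr3c1, Por, Cyb5a, H6pd and Cyp3a2 are named as well. So are the 5 genes with the highest Pearson r to each member. From the cell marker lists, Asgr1, Apob, Tat and Cyp11a1 are named outside this rule. The members and lists were chosen with earlier results of these data known. The Cyp2a1 to Cyp2a2 ratio test, the choice of its neighbours and the alternatives for lists were added after values were seen. A running number in the titles forms 5 sets of 6 arrays, 1 from each group; deviations of arrays of the same set correlated at 0.0052 on average, against -0.0013 between sets, so they were used as a block in an alternative only. Other alternatives were quantile normalization, centred medians, a constant of 64, other filters, array weights, fits of the compared groups alone, and arrays left out.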

Additional observations from a re-analysis of the deposited data

Results flagged for a closer look

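Among 36 sets of 5 wells, 6 probe sets in 6 groups, 1 had a well far from the others: replicate 1 at 3000 µM and 48 h in the probe set shared by Cyp2a1 and Cyp2a2, with a log2 signal of 12.89 (signal 7569.8, the other 4 wells 4513 to 5208.8). Chance flags about 1 in 20 such sets, so 1 in 36 is no more than chance gives. The effect of 3000 µM differed between the times, by a direct test, in that probe set (log2 difference -0.52, fall larger at 48 h) and in Hsd11b1 (log2 difference 0.34, lower than vehicle at 24 h and higher at 48 h).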

How the results depend on the processing

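Of 1137 values of the 6 probe sets under alternative settings, 1054 kept their direction and their side of the threshold, 43 lost a call, 13 gained one and 27 changed sign, all 27 in values that were not called. The calls of Cyp17a1, Cyp2a1, Cyp2a2 and the shared probe set at 3000 µM held in every alternative run, with Cyp17a1 between -2.47 and -2.07 at 24 h and between -3.15 and -2.59 at 48 h. The number of the 6 called at 300 µM and 24 h, 2 as reported, was 0 with array medians centred or with no filter, and 1 with the running-number sets as a replicate block, without the 2 arrays apart in hybridization controls, or with only the groups compared. Leaving out 1 well gave 0 to 2, with 0 without replicate 1 or 2 of vehicle or replicate 2, 3 or 4 at 300 µM. The number whose 3000 µM effect differed between the times, 2 as reported, was 1 with quantile normalization, 0 with array medians centred and 1 with only the groups compared, and stayed at 2 with any 1 well left out. Leaving out 1 well gave 5 to 6 and 4 to 6 called at 3000 µM at 24 h and 48 h, 4 to 4 and 4 to 5 against 300 µM, and 2 to 4 over time in vehicle. Hsd17b2 was called at 3000 µM at 24 h with array weights and without vehicle replicate 3, and at 48 h without vehicle replicate 2 or replicate 2 or 5 at 3000 µM. The labels do not say whether the running-number sets pair the wells. Of 30 arrays, 9 correlated best with their own set, a count that cannot decide this. The replicate block also called Hsd17b2 between the doses at 48 h (-0.48, limma adjusted p = 0.0347) and changed no other call among these probe sets beside that of Hsd11b1 at 300 µM and 24 h (limma adjusted p = 0.056). Signs changed for Hsd11b1 between the doses at 48 h (-0.021 without the 2 arrays apart in hybridization controls; -0.021 to 0.069 with 1 well left out) and at 24 h (-0.026 to 0.030), for the shared probe set in the time difference at 300 µM (-0.030 with quantile normalization, -0.0042 with array weights; -0.028 to 0.060), for Hsd17b2 in the time difference at 3000 µM (-0.022 with array medians centred; -0.134 to 0.190), at 300 µM and 48 h (-0.026 to 0.127) and over time in vehicle (-0.301 to 0.022), and for Cyp2a2 at 300 µM and 24 h (-0.062 to 0.045). The cause was not tested. Over all probe sets tested, the count at 300 µM was 227 with array medians centred against 496 as reported at 24 h (325 to 444 with 1 well left out), and at 48 h 124 with array medians centred, 615 with array weights, 467 without the 2 arrays and 482 with only the groups compared, against 255 (168 to 266 with 1 well left out). The count over time in vehicle was 736 with array medians centred, against 1195, and that of the time difference at 3000 µM was 234 with array medians centred, 362 with no filter and 319 with only the groups compared, against 688 (410 to 976 with 1 well left out, lowest without replicate 1 at 24 h and highest without replicate 1 at 48 h, both at 3000 µM). The time difference at 300 µM was called for 1 probe set with array weights, 1 without the 2 arrays and 3 with only the groups compared, against 0. For the 44 named genes of the lists, in alternatives added after the data were seen, 1670 of 1741 values were the same in direction and call, 61 lost a call, 10 gained one and 0 changed sign. The stricter filter left Hsd17b2 untested. Values under the filter level, among them all Cyp17a1 wells at 3000 µM, limit the precision of the folds.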
